A study of Macaca fascicularis with 80 samples.

Results

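Described here are 150 genes whose RNA in whole blood was lower 24 h after the third dose of IL-15/IL-15Ra than on the day of that dose, and whose day 1 means stayed near day 0 after the first dose. They were chosen from 38550 genes by measured values. Counts were scaled to CPM, which gives each gene as a part of its library's total, the 9939 genes with a mean of at least 5 CPM over all libraries were kept, and each library was centred on the median of log2(CPM + 1) over these genes, which gives the centred log2 level. A member had a day 8 mean at least 0.4 below its day 7 mean, a day 1 mean within 0.1 of day 0, and day 10 and day 21 means within 0.3 of day 0. This held for 194 genes, of which the 150 with the lowest difference between days 8 and 7 were taken.

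The animals were 8 cynomolgus macaques (Macaca fascicularis), 4 of each sex, bled on days 0, 1, 3, 4, 7, 8, 10, 14, 17 and 21 into PAXgene tubes, which fix RNA at the draw. Each draw gave 1 bulk RNA library. Every animal was given interleukin 15 (IL-15) in complex with the alpha chain of its receptor (IL-15Ra), and the dose rose from 5 µg/kg (day 0) through 10 µg/kg (day 3) to 15 µg/kg (day 7). Samples of days 3 and 7 are labelled with the dose given before that day and were therefore read as drawn ahead of the new dose. The day 0 draw, labelled with a dose of 0, is the baseline, no undosed animals were analysed, and no strain or age was used here. Dose, order of dosing and time rise together and cannot be told apart.

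IL-15 is a cytokine that keeps natural killer cells and memory CD8 T cells alive and drives their division, and IL-15Ra is the chain that presents it to cells bearing the shared beta and gamma receptor chains. RNA of whole blood comes from granulocytes, monocytes, lymphocytes, platelets and young red cells together. In such bulk samples fewer cells of a type and less RNA per cell cannot be told apart. The deposited files do not pair their identifiers with gene names, and 0 of the 38550 identifiers were found in the gene table used for names (RefSeq genes of this species), so roles of the members, marker genes of blood cells and sequences are not given, and 4 identifiers stand as examples.

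Libraries held 17.09 to 80.22 M counts (median 24.3 M). On day 8, 3 libraries exceeded 40 M counts, all of males (39102, 39103 and 39104). Column names hold tags for run and library, which are alike in 71 libraries. A different run is named for 3 libraries of day 10 (39102, 39103 and 39104) and 5 of day 14, and a different library tag for animal 39095 on day 7. The median CPM of the 9939 genes, which is low where abundant genes take more of the counts, ran from 22.04 to 42.28. Its 6 lowest libraries were those of 39104 and 39102 on day 8, 39102 on day 4, and 39090, 39104 and 39103 on day 14. Values of the members from day 7 to day 8 are given below with and without 39102 and 39104 and the deep libraries. Those from day 3 to day 4 are given with and without 39102. For day 14, animals were left out in the fits only.

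The members were genes of moderate abundance. Their mean CPM ran from 5.16 to 635.5 with a median of 19.9, against a median of 35.9 CPM for the 9939 kept genes. Together they held 0.567% of all counts on day 0, 0.657% on day 7 and 0.359% on day 8, as means of 8 libraries. The SD between the 8 animals on day 0 had a median of 0.27 over the members and 0.25 over the kept genes on the centred log2 scale.

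The values that chose the members are given as a description. Day 8 minus day 7 ran from -0.88 to -0.42 on the centred log2 scale, with a median of -0.48. The last gene taken stood at -0.4219 and the first one left out at -0.4218, so the cap of 150 falls between near-equal genes. The last gene to meet the rule stood at -0.4009, and the nearest gene outside the threshold that met the other bounds at -0.3996. In all, 1128 of the 9939 kept genes (11.3%) lay at or below the threshold of -0.4, most of them outside the bounds on days 1, 10 and 21.

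In means of 8 animals, members met the rule mainly by a low day 8 and to a smaller extent by a high day 7. This balance rested on the 3 animals with deep day 8 libraries. Without them the members' mean against day 0 was 0.16 ± 0.18 on day 7 and -0.19 ± 0.12 on day 8 (SD, n = 5). Single animals ran from 0.40 on day 7 and 0.02 on day 8 in 39100 to -0.29 and -0.46 in 39103. On day 8, 150 of 150 members had means below day 0, with a median of -0.39 (range -0.80 to -0.07), and on day 7, 119 of 150 had means above it, with a median of 0.10 (range -0.19 to 0.41). The distance below day 0 on day 8 exceeded the height above it on day 7 in 133 of 150 members. With a limit of 0.2 set after the values were seen, 140 members stood that far below day 0 on day 8, 34 that far above it on day 7, and 24 did both. By edgeR's quasi-likelihood test with animal as a block and Benjamini-Hochberg adjustment over all 16054 genes tested, a set that holds all 150 members, 92 members were called lower on day 8 than on day 7 at an adjusted p under 0.05 (7.77% of all genes were called lower) and 0 higher (6% of all genes). Against day 0, 24 members were called lower on day 8 (3.34% of all genes) and 0 higher (3.21%), and 10 called higher on day 7 (7.08% of all genes) and 0 lower (7.19%). The 24 became 0 without 39103, 2 without 39090, 39098, 39102 or 39104, 5 without 39095, 6 without 39097 and 0 without the 3 animals with deep day 8 libraries. The 10 became 19 without 39103 and 4 to 6 without any 1 of 39090, 39098, 39100, 39102 and 39104. These contrasts were used by the rule and their counts support nothing.

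The size of the day 8 value differed widely between animals. The mean of the 150 members changed from day 7 to day 8 by -1.11 in animal 39104, -1.06 in 39102, -0.41 in 39098, -0.38 in 39100, 39095 and 39090, -0.17 in 39103 and -0.16 in 39097. All 8 animals were thus lower, at -0.51 ± 0.37 (SD, n = 8) on the centred log2 scale, and 2 males stood apart from the other 6 animals. All 150 members were lower in each of these 2 males, against 112 to 143 of 150 in the other animals. Counted by gene, 65 members were lower in 8 of 8 animals, 57 in 7 and 28 in 6.

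**Figure D1:**
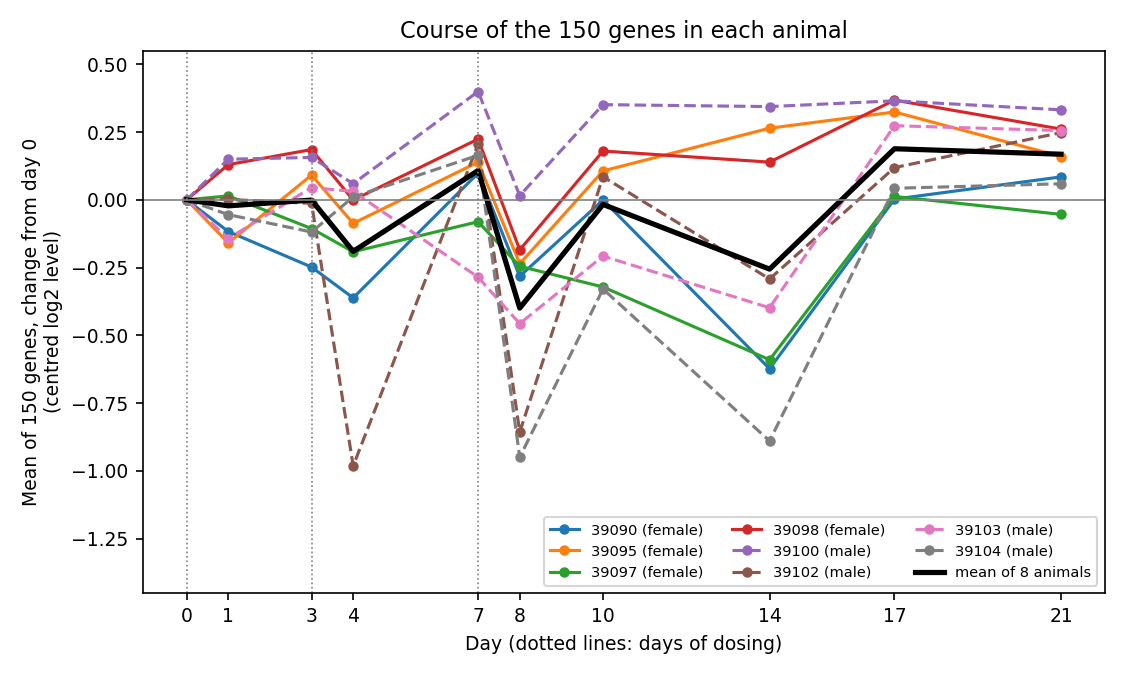
Mean of the 150 genes in each library as the change from the same animal's day 0 (y axis, centred log2 level) by day (x axis); solid lines are females, dashed lines males and the black line is the mean of 8 animals. Animals 39102 and 39104 reach -0.86 and -0.95 on day 8, and 39102 reaches -0.98 on day 4, while the other day 8 libraries lie between -0.46 and 0.02.

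Without animals 39102 and 39104 the mean change from day 7 to day 8 was -0.31 ± 0.11 (SD, n = 6). Without the 3 animals with deep day 8 libraries it was -0.34 ± 0.10 (n = 5), and 63 members were then called lower (6.94% of all genes). Against day 0, the 3 deep day 8 libraries were the 3 lowest of that day, at -0.95 in 39104, -0.86 in 39102 and -0.46 in 39103, and the other 5 ran from -0.28 to 0.02. The smaller change of 39103 from day 7, -0.17, goes with a low day 7 library, at -0.29 against day 0 and with the lowest median CPM of day 7 (29.59). The part of depth in these values was not tested. The count of 92 rested on single animals. It was 0 without 39095, 1 without 39098, 4 without 39102, 11 without 39090, 21 without 39100 and 43 without 39104. Members had a median log2 fold change between -0.58 and -0.45 when any 1 animal was left out, and of -0.56 without 39095. They were chosen by this step in the same animals, so that range supports nothing. Lists chosen with an animal left out changed by -1.02 to -0.08 in that animal, as given below. Over all genes, too, fewer were called lower, 131 without 39095 and 193 without 39098. The day 7 library of 39095 has its own library tag, so tag and animal cannot be told apart in that fit.

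Membership itself moved with the 2 males. Chosen by the same rule in 7 animals, 91 genes met it without 39102 and 79 without 39104, against 193 to 296 without any 1 of the other 6. Lists of 7 animals, capped at 150, shared 67 to 105 genes with the 150 members, which was 63.3% to 84.8% of each list. In the animal left out, the mean change of its list from day 7 to day 8 was -1.02 in 39104, -0.92 in 39102, -0.34 in 39095, -0.33 in 39090, -0.32 in 39098, -0.25 in 39100, -0.10 in 39097 and -0.08 in 39103. These values were lower than 0 in 8 of 8 animals, and the lists share most of their animals. When the 3 animals with deep day 8 libraries were left out together, 62 genes met the rule and 28 of them were members, which is 45.2% of that list and 18.7% of the members.

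The second dose offers a comparison that the rule did not use, since days 3 and 4 have no part in it. From day 3 to day 4 the members' mean changed by -0.97 in 39102, -0.19 in 39098, -0.18 in 39095, -0.11 in 39090, -0.10 in 39100, -0.09 in 39097, -0.01 in 39103 and 0.13 in 39104. One library thus stood far from the rest, and 7 of 8 animals were lower. The mean was -0.19 ± 0.33 (SD, n = 8), or -0.08 ± 0.11 (n = 7) without 39102. By edgeR 0 of 150 members were called in either direction (0.181% of all genes were called lower and 0% higher), with 17 members lower at an unadjusted p under 0.05 and 0 higher, and DESeq2 also called 0. Of all genes, 10.98% had such an unadjusted p in either direction, a share close to that of 17 in 150. The 17 all lay in 1 direction, and the share of all genes in that direction alone is not given here. The median edgeR log2 fold change of the members was -0.19, against -0.01 over all genes tested, and 138 of 150 were negative. Without 39102 it was -0.07.

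**Figure D2:**
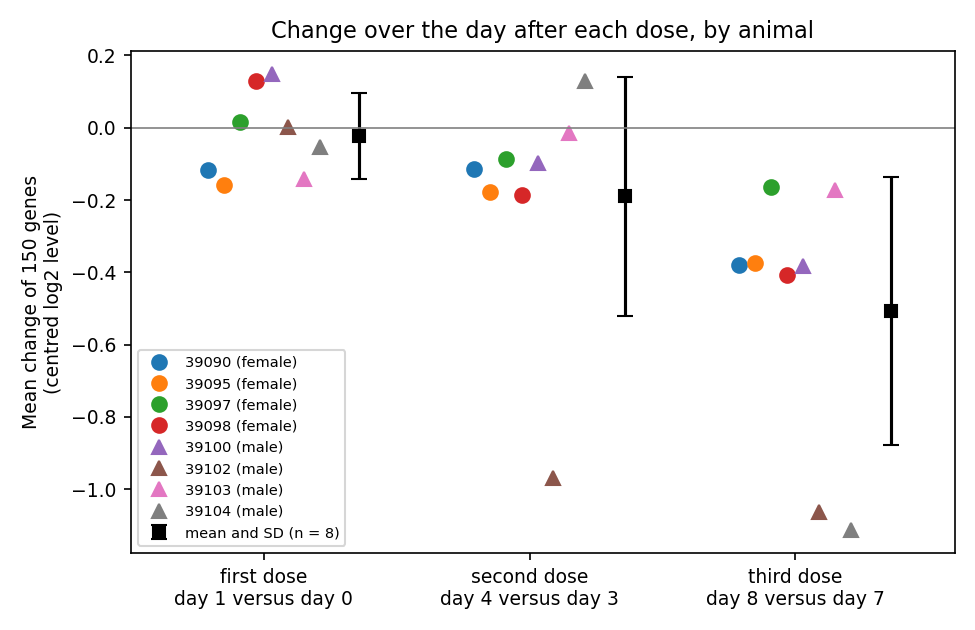
Mean change of the 150 genes over the day after each of the 3 doses (y axis, centred log2 level) for each animal, with circles for females, triangles for males and black squares for the mean with its SD (n = 8). After the third dose the animals lie between -1.11 and -0.16, after the second 7 of them lie between -0.19 and 0.13 with 39102 at -0.97, and after the first they lie between -0.16 and 0.15.

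After the first dose the members lay on both sides of day 0, with 4 animals lower and 4 higher and a mean change of -0.02 ± 0.12 (SD, n = 8) on the centred log2 scale. The bound of 0.1 fixed the mean of each member but not the animals, whose values ran from -0.16 in 39095 to 0.15 in 39100. With edgeR 0 members were called (2.61% of all genes higher and 1.86% lower), with 0 at an unadjusted p under 0.05 (19.03% of all genes) and 0 by DESeq2. The bound on day 1 bears on these counts, and they support nothing. On day 3 against day 0, a comparison not bounded by the rule, edgeR called 0 members (7.91% of all genes higher and 7.44% lower), with 10 members higher and 4 lower at an unadjusted p under 0.05 (28.99% of all genes in either direction). DESeq2 called 1 member higher (9.07% of all genes) and 2 lower (10.2%) there. The median edgeR log2 fold change on day 3 was 0.01.

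The third comparison outside the rule is the step from day 14 to day 17, 7 and 10 days after the last dose. From day 14 to day 17 the mean of the members changed by 0.93 in 39104, 0.67 in 39103, 0.63 in 39090, 0.60 in 39097, 0.41 in 39102, 0.23 in 39098, 0.06 in 39095 and 0.02 in 39100, or 0.44 ± 0.32 (SD, n = 8). It was higher in 8 of 8 animals, and nearly level in 2 of them. By edgeR 81 members were called higher (9.23% of all genes, and 12.4% of the 9939 kept genes) and 0 lower (10.8% of all genes). The members' median log2 fold change was 0.50, against 0.06 over all genes, and 149 of 150 were positive.

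The count of 81 members called higher also rested on single animals. It was 0 without 39102 or 39103, 1 without 39090 and 24 without 39097, and of all genes 0 were called without 39102 and 0 without 39103. The members' median log2 fold change stayed between 0.42 and 0.57 when any 1 animal was left out. Of the 8 day 14 libraries, 5 carry the other run tag. Among the 3 animals with both days in the shared run, 18 members were called higher (1.44% of all genes) with a median of 0.76.

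Day 14 itself held the widest spread between animals. Against day 0 the mean of the members stood at -0.89 in 39104, -0.62 in 39090, -0.59 in 39097, -0.40 in 39103 and -0.29 in 39102, and at 0.14 in 39098, 0.26 in 39095 and 0.34 in 39100. So 5 animals were lower and 3 higher, at -0.26 ± 0.46 (SD, n = 8). The 3 animals in the shared run on day 14 (39102, 39103 and 39104) were all low, and of the 5 in the other run, 39090 and 39097 were low and the 3 high animals were high. The part of the run in these values was not tested. Within the shared run 12 members were called lower (2.14% of all genes). By edgeR 6 members were called lower (6.44% of all genes) and 0 higher (7.2% of all genes), with 25 lower (11.9% of all genes) and 1 higher (12.4%) by DESeq2. The count of 6 was 15 without 39095 or 39100, 2 without 39104 (1 in each direction), 1 without 39102 and 0 without 39090, 39097 or 39103. The shares of all genes in these fits are not given here.

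By day 17 the members' mean stood above day 0 in 8 of 8 animals, at 0.19 ± 0.16 (SD, n = 8) on the centred log2 scale. It reached 0.37 in both 39098 and 39100. It was nearly level in 39090 (0.002), 39097 (0.01) and 39104 (0.04), with 77, 78 and 84 of 150 members higher. Here edgeR called 28 members higher (12.1% of all genes, and 16.4% of the kept genes) and 0 lower (13.6% of all genes). The share of 28 in 150 was close to that of the kept genes in the same direction. The count was 11 to 15 without any 1 of 39095, 39098, 39100 and 39103, and 42 without 39090. Comparisons with day 0 share their day 0 libraries with each other and with the bounds of the rule. From day 8 to day 10, on days the rule used, 58 members were called higher (5.64% of all genes) and 0 lower (5.51%), and the bound on day 10 bears on this count. It was 2 without 39095, 5 without 39098, 9 without 39104, 19 without 39090, 22 without 39100, 29 without 39102 and 96 without 39097. Shares of all genes in the fits that leave out an animal are not given here, so those counts show nothing particular to the members.

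Across libraries the members moved together, and with the median CPM of the library. For each gene and animal the mean over the 10 days was subtracted, which removes stable differences between animals. The correlation between the members' mean and the log2 median CPM was then 0.957 over the 80 libraries, and 0.952 over the 32 libraries of days 3, 4, 14 and 17, which the rule did not use. All 150 members correlated positively with the median CPM over those 32 libraries, with a median r of 0.797 (range 0.185 to 0.943), whereas 51.8% of the 9939 kept genes did so, with a median r of 0.0461. Of the kept genes, 7.57% had an r at or above the members' median, so such a correlation is not particular to the members. Pairs of members had a median r of 0.67 over these libraries and pairs of kept genes -0.00124. The points share library, animal and composition, so these are descriptions without a test, and the members were centred on the same median that they are set against.

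**Figure D3:**
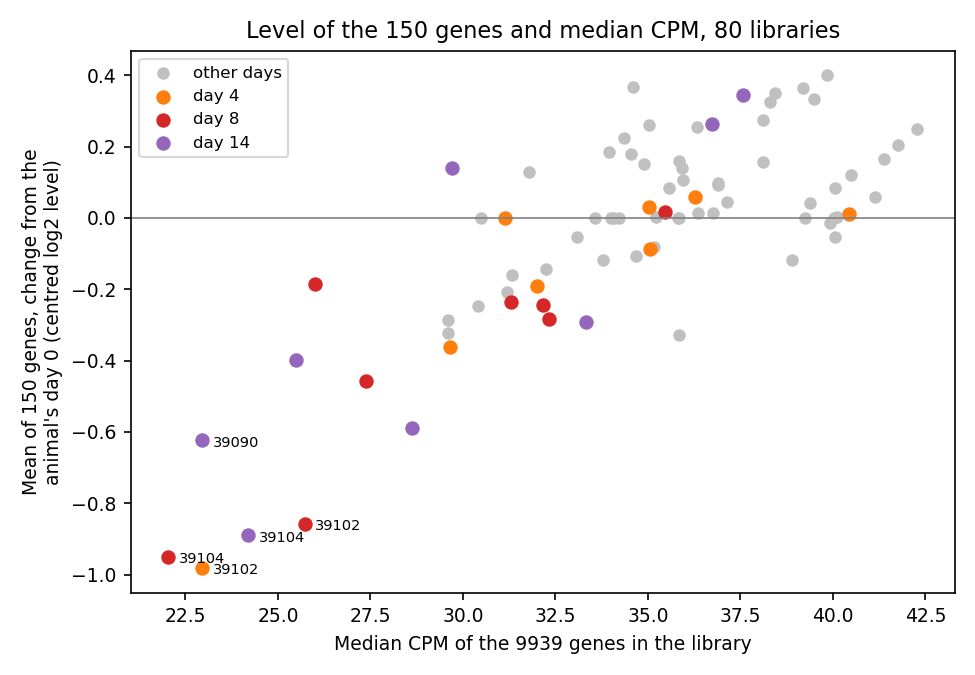
Change of the 150 genes' mean from the same animal's day 0 (y axis, centred log2 level) against the median CPM of the 9939 kept genes (x axis), 1 point per library, with days 4, 8 and 14 coloured and all other days grey. The 5 lowest libraries, with the animal's number beside them, have a median CPM between 22.04 and 25.73.

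The 5 libraries lowest in the members were among the 6 with the lowest median CPM. The remaining one of these 6, 39103 on day 14, had a member change from day 0 of -0.40 at a median CPM of 25.49. The lowest, 39102 on day 4, had a member change from day 0 of -0.98, a median CPM of 22.95 and 27.99% of its counts in its 100 most abundant genes. The day 8 library of 39104 had a change of -0.95, a median CPM of 22.04 and 28.73% in the top 100 genes. On day 0 the median CPM ran from 30.5 to 40.03 and the share of the top 100 genes from 19.3% to 22.2%. The library of 39098 on day 8, at a median CPM of 25.99, had a member change of -0.18. Library totals went with the members far less, at r = -0.209 over 80 libraries and 0.233 over the 32. The part of library composition in the members' course was not tested.

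Scaling changed the size of these values. The rule chose members that fell from day 7 to day 8, so a kept sign and calls in that step support nothing. With raw totals used in place of TMM factors (trimmed means of M-values), which leaves composition in the values, the median log2 change of all genes from day 7 to day 8 was -0.43 in place of -0.06, and that of the members was -0.89 in place of -0.53. Relative to all genes the members were lower under both, and 143 were called lower with library totals (25.7% of all genes). In the step from day 14 to day 17 library totals moved the median of all genes from 0.06 to 0.43 and that of the members from 0.50 to 0.87. When the column median was not subtracted in the rule, 1245 genes met it in place of 194.

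The day 8 values of males and females overlapped. The mean of the members changed from day 7 to day 8 by -0.33 ± 0.11 (SD, n = 4) in females and -0.68 ± 0.48 (n = 4) in males, and the males held both the largest changes and 1 of the 2 smallest. In edgeR's test of the sex-by-day term 0 members were called (0% of all genes in either direction), and 0 by DESeq2. At an unadjusted p under 0.05 there were 7 members (4.55% of all genes in either direction), all more negative in males. The share of 7 in 150 is close to that of all genes, which counts both directions, while the 7 all lie in 1. The members' median log2 value of this term was -0.32, against -0.01 over all genes, and 138 of 150 were negative. Members move together across libraries, so these are not independent values. The rule did not use sex, but chose members by the same day 7 and day 8 libraries, so values of this term support nothing. All 3 deep day 8 libraries are of males, and the remaining male, 39100, had 23.3 M counts on day 8 and a change of -0.38, within the range of the females.

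The 4 example genes were taken as the 2 members lowest on day 8 and the 2 highest on day 7 against day 0 by edgeR, among those called, so those contrasts restate the choice. ENSMFAG00000031772 was the lowest of the first pair. Its level ran from 2.24 to 3.40 log2 CPM on day 0 (median 2.78), from 1.86 to 3.17 on day 7 (median 2.51) and from 1.29 to 2.21 on day 8 (median 1.82). Day 8 lay below the whole range of day 0 and overlapped that of day 7. The edgeR log2 fold change of day 8 against day 7 was -0.78 (SE 0.20, adjusted p = 0.0372), lower in 8 of 8 animals, and the call was lost without any 1 of 39090, 39095, 39097, 39098, 39100, 39102 and 39104. From day 14, where it ran from 1.56 to 3.01, to day 17, where it ran from 2.13 to 3.48, ENSMFAG00000031772 rose by 0.72 (SE 0.22, edgeR adjusted p = 0.0408) in 7 of 8 animals, a call lost without any 1 of 39090, 39097, 39102, 39103 and 39104 (adjusted p 0.0749 to 0.106).

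ENSMFAG00000044962, a more abundant member, ran from 6.17 to 6.93 log2 CPM on day 0 (median 6.51), from 5.70 to 6.99 on day 7 (median 6.67) and from 5.02 to 6.27 on day 8 (median 5.95). Its days 7 and 8 overlapped, with 39103 lowest on day 7 and 39102 lowest on day 8. On day 4 its library of 39102 stood at 4.58, below every other library of the gene. Between days 14 and 17 ENSMFAG00000044962 rose by 0.87 (SE 0.17, edgeR adjusted p = 0.0183) in 8 of 8 animals, with levels of 4.86 to 6.72 on day 14 and 6.40 to 6.95 on day 17. That call was lost without 39090, 39102 or 39103 (adjusted p 0.0507 to 0.0583).

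**Figure D4:**
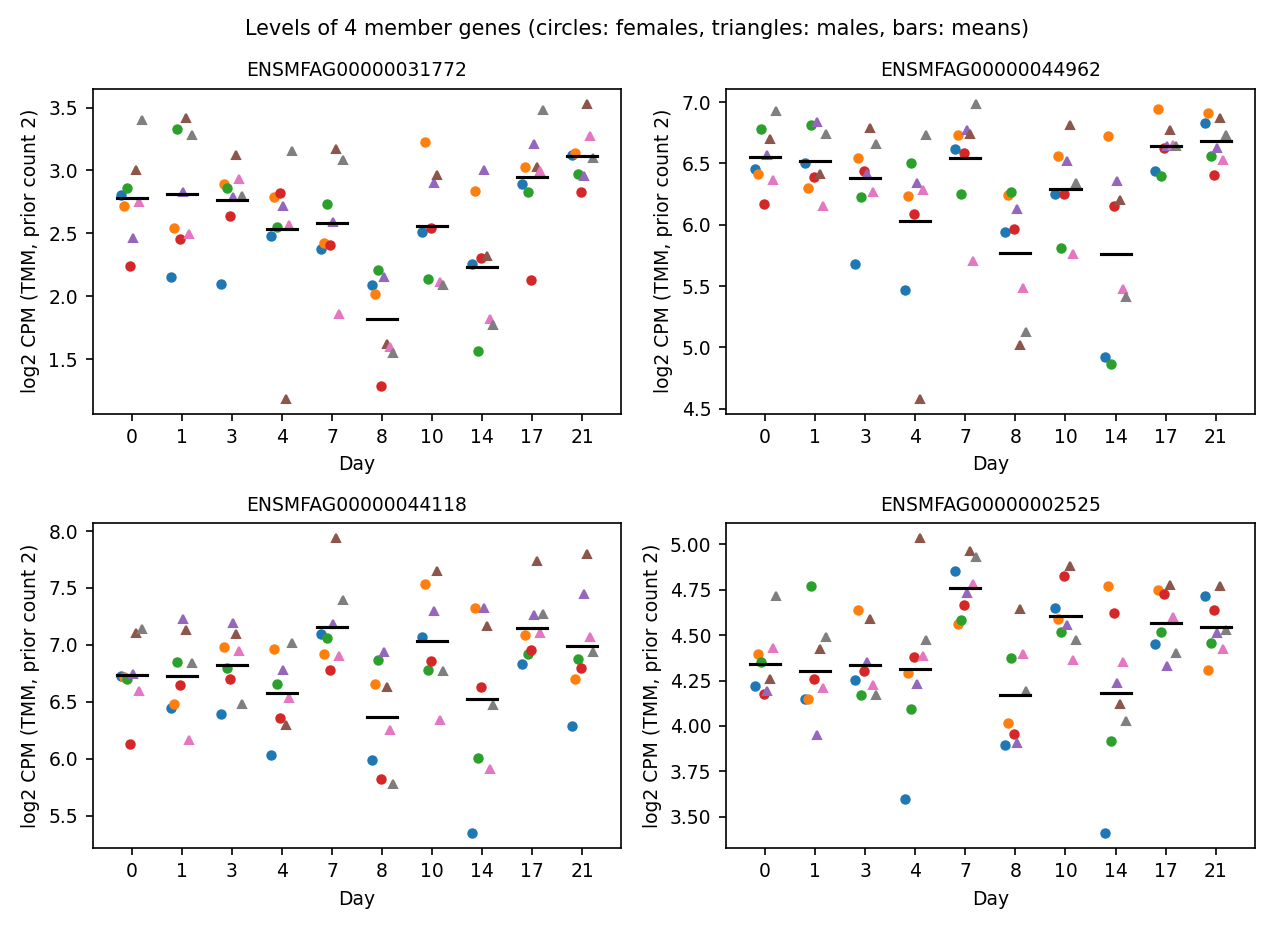
Levels of 4 member genes (y axes, log2 CPM with TMM scaling) by day (x axes), 1 point per library with circles for females, triangles for males and 1 colour per animal as in the plot of the course, and bars for the mean of 8 animals. Bars drop between days 7 and 8 for each gene, and for ENSMFAG00000002525 animal 39102 is the highest point on days 4 and 8.

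The second pair stood high before the third dose. ENSMFAG00000044118 ran from 6.13 to 7.14 log2 CPM on day 0 (median 6.73), from 6.78 to 7.94 on day 7 (median 7.08) and from 5.78 to 6.93 on day 8 (median 6.44), with 39104 lowest on day 8. It was 0.43 higher on day 7 than on day 0 (SE 0.09, edgeR adjusted p = 0.00817) in 8 of 8 animals, and 0.41 higher on day 17 (SE 0.09, edgeR adjusted p = 0.00603), also in 8 of 8. Between days 14 and 17 ENSMFAG00000044118 rose by 0.62 (SE 0.18, edgeR adjusted p = 0.037) in 6 of 8 animals, a call lost without any 1 of 39090, 39097, 39102, 39103 and 39104.

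ENSMFAG00000002525 had the narrowest spread on day 7. It ran from 4.18 to 4.71 log2 CPM on day 0 (median 4.31), from 4.56 to 4.97 on day 7 (median 4.76) and from 3.90 to 4.64 on day 8 (median 4.11), lower on day 8 in 8 of 8 animals. Unlike the mean of the members, it was highest in 39102 on both day 4 (5.03) and day 8 (4.64). Its edgeR log2 fold change from day 3 to day 4 was -0.02 (SE 0.12, adjusted p = 0.949), and its change from day 14 to day 17 of 0.38 (SE 0.13, edgeR adjusted p = 0.0515) missed the threshold with 7 of 8 animals higher.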

How the data were processed

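Bulk RNA sequencing of whole blood from 8 cynomolgus macaques on 10 days gave 80 libraries. The authors deposited 2 tables of gene counts, raw whole numbers without normalization, for the same libraries, with 38550 genes in the main table and 35432 in the second. The RNAdvance Blood kit (extraction) and KAPA HyperPrep (libraries) were used, per the labels' protocols. How reads were aligned and counted, on which build and by strand or not, is not given in the sources used here, so reads shared by near-identical or overlapping genes could not be traced.

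Groups are the labelled days, and animal numbers in the labels give the pairing. After subtracting day means, libraries of the same animal correlated over the kept genes at a median r of 0.581 and libraries of different animals at -0.0785, and all 80 libraries correlated best with their own animal. No 2 libraries of a day agreed within counting noise (smallest chi-square per degree of freedom 29.9).

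Every comparison used only the libraries of its days and a term for animal in edgeR 4.0.16 (R 4.3.3; filterByExpr by day, 16054 genes, TMM over all 80 libraries, glmQLFit and glmQLFTest, Benjamini-Hochberg adjustment over all genes). The prior count for log2 CPM was 2. Alternatives were DESeq2 1.42.0, library totals, no low-count filter, no block, other settings of the rule and leaving out each animal. Library totals ran from 17.09 to 80.22 M counts. Members, gene lists and tests were chosen with earlier results of these data known. Lists of cell markers and pathways could not be used because no identifier was paired with a symbol. The rule for named genes took, in that case, the 2 members with the lowest day 8 and the 2 with the highest day 7 log2 fold change against day 0 among those called.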

Additional observations from a re-analysis of the deposited data

Results flagged for a closer look

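In 53 groups of 8 libraries (the members' mean change on each day and in each step between days, and the levels of 4 genes on each day), the lowest and highest library were compared with the rest by Dixon's ratio at its critical value for 8 values, which marks about 5% of groups by chance. In 4 groups a library stood apart, and 3 of these are the day 4 library of animal 39102. The mean of the 150 genes changed by -0.982 from that animal's day 0, where the other 7 lay between -0.362 and 0.0595. Its change from day 3 to day 4 was -0.969, where the others lay between -0.186 and 0.129. ENSMFAG00000031772 stood at 1.18 log2 CPM in that library, against 2.48 to 3.15 in the others of day 4. The remaining group is day 3, where ENSMFAG00000031772 stood at 2.09 log2 CPM in animal 39090 against 2.64 to 3.12. The groups share libraries and are not independent of each other.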

How the results depend on the processing

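The number of genes meeting the rule was 1245 without the column median, 440 at a threshold of -0.3, 66 at -0.5, 73 without animals with a day 7 or 8 library over 40 M counts and 62 without those over it on day 8 alone. It ran from 79 to 296 when 1 animal was left out. Other settings gave 169 to 230, but the lists differed. Of the 150 genes taken at a mean of at least 20 CPM, 52 were members (34.7%). The members' median was 19.9 CPM, so that filter removes many of them. At a mean of at least 1 CPM 109 were members (72.7%), with TMM factors in place of the column median 120 (80%) and with a pseudocount of 0.25 128 (85.3%). With library totals in place of TMM, 143 members were called for day 8 against 7 (25.7% of all genes were called lower). Members called were 6 for day 7 against 0, 54 for day 8 against 0 and 93 for day 10 against 8. For day 17 they were 135 against day 14 and 62 against day 0. The median for day 17 against 14 became 0.87. DESeq2 called 3 for day 3 against 0, 56 for day 8 against 0 and 26 for day 14 against 0. Without the low-count filter these were 2, 9 and 3. Fits with no replicate block, which drop the pairing by animal, called 36 for day 8 against 7, 2 for day 7 against 0, 9 for day 10 against 8, 36 for day 17 against 14 and 2 for day 17 against 0. Without animals with deep day 8 libraries, 0 were called for day 8 against 0 and 20 for day 10 against 8. Within the shared run and library tag, 12 were called for day 14 against 0 and 18 for day 17 against 14. Leaving out 1 animal gave 0 to 91 for day 8 against 7, 0 to 4 for day 3 against 0, 4 to 19 for day 7 against 0, 0 to 34 for day 8 against 0, 2 to 96 for day 10 against 8, 0 to 15 for day 14 against 0, 0 to 92 for day 17 against 14 and 11 to 42 for day 17 against 0. Most of these counts stand without the share of all genes called in the same fit, so they are no result about the members. Leaving out the animals with deep day 8 libraries and restricting to the shared run were chosen after seeing the data. The causes were not tested. No called value changed sign. For the 4 example genes 70 alternative values lost a call, 11 gained one, 30 moved and 441 did neither.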
